A study of Mus musculus with 60 samples.

Results

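The genes described here are 6 members of the mouse Prame-like family, Pramel6, Pramel7, Pramel16, Pramel18, Pramel19 and Pramel31, out of 55487 genes in the count tables. They were taken by name, with a minimum of 30 counts summed over all libraries, and all 6 passed. Pramel19 had the most counts over the 60 libraries (9425), followed by Pramel6 (8092), Pramel7 (7941), Pramel18 (6289), Pramel31 (4799) and Pramel16 (3814). The tables hold 48 genes of the wider Prame family, of which 28 reached 30 counts. Pramel12 (49854) and Pramel13 (43272), which are not among the 6, had more counts than any member. RNA was sequenced from E14JU mouse embryonic stem cells (mESC) of 2 clones, and both clones carry POLE4-dTAG, in which the histone-binding polymerase epsilon subunit POLE4 is fused to a tag that a dTAG compound targets for degradation. The genotype POLE4-dTAG/MCM2-2A adds a mutant MCM2, the replicative helicase subunit, that is impaired in histone binding. Cells received DMSO (Ctrl and Ctrl MCM2-2A) or dTAG (dPOLE4 and dPOLE4 MCM2-2A) for 24 h in serum with LIF (T0), or for 96 h in a separate experiment. After the 24 h, cells were moved to retinoic acid (RA) without LIF for 12 h, 24 h or 60 h (T12, T24, T60). The methods do not say whether the RA medium also held dTAG or DMSO. The treatment text of the labels gives other collection times in RA than the sample titles do, and the titles were used. Each of the 20 groups had 3 libraries. Each genotype is 1 clone, so that a difference between the genotypes and a difference between the clones cannot be told apart. The methods name the libraries of a group biological replicates, without saying how these were separated. In bulk RNA, fewer cells that express a gene and less RNA per cell cannot be told apart.

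PRAME-like proteins are built of leucine-rich repeats, and several act as substrate receptors of cullin ubiquitin ligases. Pramel7 is known from the inner cell mass and from mESC in the naive state, where it acts downstream of LIF and STAT3 and promotes the breakdown of UHRF1, the cofactor of maintenance DNA methylation. Pramel6 lies next to it in the genome. Many of the Pramel genes on chromosome 4 are known from oocytes and the 2-cell embryo, and their RNA is typical of the rare 2-cell-like cells of mESC cultures, together with Zscan4 genes and the MERVL retrovirus.

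The members lie in 2 places. Pramel6 (ENSMUSG00000025838, chr2:87506565-87510872, plus strand, mm10) and Pramel7 (ENSMUSG00000025839, chr2:87489087-87497093, minus strand) are 9.5 kb apart on chromosome 2. On chromosome 4, Pramel18 (ENSMUSG00000037028, chr4:101909121-101911908, plus strand) and Pramel19 (ENSMUSG00000070890, chr4:101940407-101943183, plus strand) are 28.5 kb apart, and Pramel16 (ENSMUSG00000078511, chr4:143948580-143951016, minus strand) and Pramel31 (ENSMUSG00000070619, chr4:144357942-144364419, plus strand) are 406.9 kb apart. No other annotated gene overlaps any of the 6. The coding sequences have between 1437 and 1482 bases. Those of Pramel16 and Pramel31 were 96.9% identical over aligned bases and those of Pramel18 and Pramel19 96.8%, while every other pair of members was between 63.3% and 68.7% identical. Of all stretches of 100 bases, the length of a read, in the transcripts of Pramel18, 36.95% also occur in Pramel19 and in no other gene. The share that occurs in some other gene was 37.84% for Pramel19, 26.5% for Pramel16, 13.98% for Pramel31 and 0 for Pramel6 and Pramel7. How reads that match several genes were divided is not stated in the sources used here, so the separate values of the 4 genes on chromosome 4 are uncertain, and those of Pramel6 and Pramel7 do not carry this doubt.

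The 250 bases before the RefSeq start are shown for both chromosome 2 genes, whose RNA fell together in Ctrl, and for 1 gene of each near-identical pair on chromosome 4. They are RefSeq sequences on GRCm38.p6 (Pramel6 chr2:87506315-87506564, plus strand; Pramel7 chr2:87492419-87492668, minus strand; Pramel16 chr4:143951017-143951266, minus strand; Pramel19 chr4:101940157-101940406, plus strand), 5′ to 3′ towards the start. For Pramel7 this is the start of its coding transcript, and the window lies inside the gene span given above, because GENCODE has noncoding transcripts of the gene that begin further upstream. Capitals mark CG dinucleotides, the sites of DNA methylation.
Pramel6: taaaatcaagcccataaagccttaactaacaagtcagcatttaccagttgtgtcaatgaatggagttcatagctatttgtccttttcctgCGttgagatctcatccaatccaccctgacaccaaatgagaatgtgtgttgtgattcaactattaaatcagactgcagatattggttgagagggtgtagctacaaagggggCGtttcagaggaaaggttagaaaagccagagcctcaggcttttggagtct
Pramel7: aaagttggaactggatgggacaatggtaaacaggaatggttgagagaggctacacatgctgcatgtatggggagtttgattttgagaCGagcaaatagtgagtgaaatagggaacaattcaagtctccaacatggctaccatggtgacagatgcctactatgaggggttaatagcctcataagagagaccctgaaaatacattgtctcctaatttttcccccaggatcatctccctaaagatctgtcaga
Pramel16: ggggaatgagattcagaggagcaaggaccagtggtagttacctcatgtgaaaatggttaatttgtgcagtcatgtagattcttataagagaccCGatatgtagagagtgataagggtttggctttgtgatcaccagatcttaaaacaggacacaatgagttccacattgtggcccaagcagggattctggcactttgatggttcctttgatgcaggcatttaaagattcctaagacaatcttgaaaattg
Pramel19: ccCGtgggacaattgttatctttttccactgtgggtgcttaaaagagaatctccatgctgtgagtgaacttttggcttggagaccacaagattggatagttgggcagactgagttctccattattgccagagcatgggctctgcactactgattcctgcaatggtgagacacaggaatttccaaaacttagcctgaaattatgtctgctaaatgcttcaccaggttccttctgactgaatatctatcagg
These windows were poor in CG. Pramel6 and Pramel31 had 2 and Pramel7, Pramel16 and Pramel19 had 1, against a median of 6 over 32851 promoter windows of the same length. The windows were searched on both strands for 4 motifs. None of the 5 held the STAT motif TTCNNNGAA (7.0% of all windows do), the nuclear receptor half-site AGGTCA (14.0%) or the ZSCAN4 motif TGCACAC (3.7%), and only that of Pramel31 held TATAAA (12.4%), between 68 and 63 bases before the start. A match or its absence describes these letters only.

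The 48 libraries of T0 and RA had between 10461077 and 46609151 counts (median 19752626) and the 12 of 96 h between 7126100 and 23598266 (median 17715907.5). Levels are given as CPM, counts relative to the library's scaled total, within an experiment and are not compared between the experiments. Pole4 mRNA, the transcript of the degraded protein, was 52.4 ± 2.28 CPM in Ctrl and 52.4 ± 4.92 in dPOLE4 at T0, and 33.1 ± 1.03 in Ctrl MCM2-2A and 31.3 ± 2.94 in dPOLE4 MCM2-2A (SD, n = 3). The tag acts on the protein, so mRNA does not check the depletion. Mcm2 mRNA at T0 was 497 ± 10.7 CPM in Ctrl and 311 ± 34.2 in Ctrl MCM2-2A (SD, n = 3). The part of this difference in the results was not tested. The summed level of 5 mESC markers (Pou5f1, Sox2, Nanog, Zfp42, Esrrb) reached 2789 CPM at its highest and 111.5 at its lowest in the first experiment and lay between 2181 and 2659 at 96 h. In the first experiment, summed markers lay between 70.65 and 132.5 CPM for trophoblast, 48.25 and 402.2 for neural progenitors, 14.13 and 607.6 for primitive endoderm and 16.95 and 455.8 for fibroblasts, and the part of these cells in the results was not tested.

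Between T0 and T60 in Ctrl cells, the 6 genes moved in opposite directions. RA, the withdrawal of LIF and the time in culture cannot be told apart in this comparison. Pramel6 and Pramel7 fell, and the 4 genes on chromosome 4 rose, so that their order per length was turned over by T60. Pramel6 was 12.6, 14.4 and 16 CPM in the 3 libraries at T0 and 1.95, 2.01 and 2.21 at T60. Pramel7, which favours the hypomethylated naive state, was 11.5, 12 and 12.9 CPM at T0 and 1.52, 1.1 and 2.11 at T60. Every T60 library of both genes was below every T0 library. Pramel16 was 0.623, 0.171 and 0.354 CPM at T0 and 10.9, 10.1 and 8.82 at T60. Pramel18 was 1.76, 0.456 and 1.16 CPM at T0 and 11.1, 10.8 and 9.59 at T60. Pramel19 was the highest of the 4, with 3.68, 0.741 and 1.62 CPM at T0 and 22.4, 18.2 and 18.4 at T60. For each of these genes, the T60 libraries were all above the T0 libraries, and replicate 2 was the lowest at T0. Pramel31 was 0.510, 0.399 and 0.455 CPM at T0 and 8.09, 5.30 and 5.75 at T60, again without overlap.

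All 6 members passed the test between T60 and T0 in Ctrl, where 50.6% of all features did. Calls needed an adjusted p under 0.01 (edgeR's quasi-likelihood F test, Benjamini-Hochberg adjustment over all features) together with a log2 change beyond 0.58 in either direction. The log2 change was -2.83 ± 0.16 (SE, adjusted p = 5.64e-10) for Pramel6 and -2.97 ± 0.19 (1.44e-09 adjusted p) for Pramel7. It was 4.67 ± 0.27 (adjusted p = 5.38e-10) for Pramel16, the steepest rise among the members, and 3.79 ± 0.27 (adjusted p = 6.31e-09) for Pramel31. Pramel18 and Pramel19 rose by 3.19 ± 0.26 and 3.28 ± 0.29 on the log2 scale. Per kilobase of merged exons, the scale on which genes can be compared, Pramel6 and Pramel7 had the highest mean levels of the members at T0 (RPKM of 6.88 and 5.69) and Pramel19 and Pramel18 the highest at T60 (13.5 and 7.20, against 5.92 for Pramel16, 3.05 for Pramel31, 0.985 for Pramel6 and 0.738 for Pramel7).

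**Figure D1:**
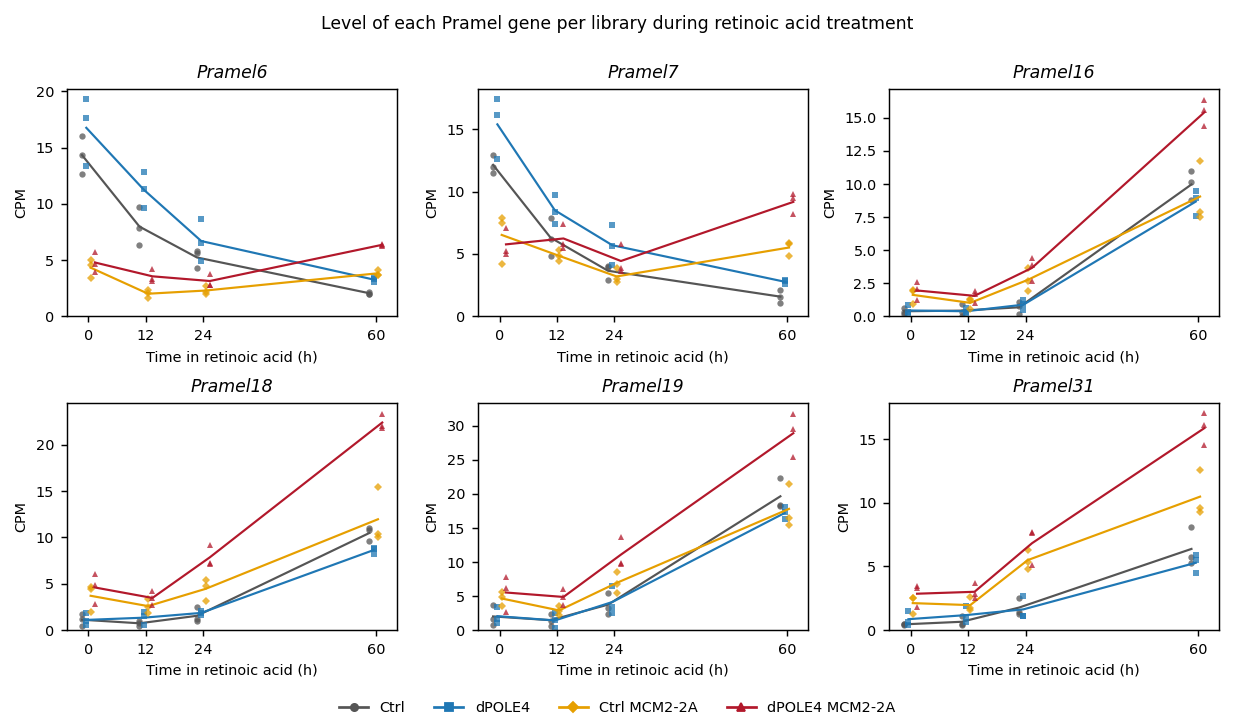
CPM of each of the 6 genes (y axis, a separate scale per panel) against hours in RA (x axis, points of the 4 lines set slightly apart), with 1 point per library and lines through the means of 3 libraries. In the clone with wild-type MCM2, Pramel6 and Pramel7 start highest and end lowest, whereas Pramel16, Pramel18, Pramel19 and Pramel31 rise in every line, most of all between T24 and T60, and are highest in dPOLE4 MCM2-2A at T60.

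The chromosome 2 genes were the first to be called. Pramel6 and Pramel7 were already lower at T12 than at T0 in Ctrl, by log2 changes of -0.84 ± 0.14 and -0.94 ± 0.15, and in dPOLE4, by -0.59 ± 0.14 and -0.87 ± 0.14. In each of these lines they were the 2 members called (background 11.3% in Ctrl and 11.7% in dPOLE4). Pramel6 was called also in Ctrl MCM2-2A (-1.1 ± 0.21, 1 member, background 8.65%), and none in dPOLE4 MCM2-2A (background 7.79%) by edgeR, which gave 1 member an unadjusted p below 0.05, and 0 were called by DESeq2. None of the chromosome 4 genes was called at T12. Their counts were then so low that Pramel16 was not tested in Ctrl and dPOLE4, nor Pramel31 in Ctrl. Pramel16 had 28, 0 and 6 counts in the T12 libraries of Ctrl. The call of Pramel6 in dPOLE4 was lost with all groups in 1 fit, and without replicate 2 or 3 of T0 or replicate 1 or 2 of T12 (log2 change between -0.71 and -0.48 over the 6 libraries left out in turn), and that in Ctrl MCM2-2A without replicate 3 of T0 or replicate 2 of T12 (between -1.25 and -0.96).

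At T60 the same opposite movement was seen in dPOLE4. In the MCM2-2A clone the chromosome 4 genes rose, Pramel6 and Pramel7 were not called lower, and Pramel7 rose in dPOLE4 MCM2-2A. In dPOLE4 all 6 members were called (background 48.1%), with log2 changes of -2.40 ± 0.16 for Pramel6, -2.49 ± 0.15 for Pramel7, 4.34 ± 0.30 for Pramel16, 2.99 ± 0.26 for Pramel18, 3.09 ± 0.23 for Pramel19 and 2.66 ± 0.30 for Pramel31. In Ctrl MCM2-2A 4 members were called, all higher at T60 (background 47.5%). Pramel16 rose by 2.38 ± 0.24, Pramel18 by 1.60 ± 0.23, Pramel19 by 1.91 ± 0.16 and Pramel31 by 2.21 ± 0.20. Pramel6 was 4.6, 3.36 and 5.02 CPM at T0 and 3.70, 4.11 and 3.68 at T60, and Pramel7 was 7.85, 4.21 and 7.51 at T0 and 5.83, 5.85 and 4.85 at T60. The ranges of both overlapped, and the intervals of the log2 change (95%) were -0.57 to 0.16 for Pramel6 and -0.69 to 0.14 for Pramel7. In dPOLE4 MCM2-2A, 5 members were called, all higher at T60 (background 42.2%). Pramel7 was 4.97, 5.24 and 7.09 CPM at T0 and 9.78, 8.24 and 9.48 at T60, a rise of 0.61 ± 0.16 (adjusted p = 0.00639). Pramel6 was 3.97, 4.67 and 5.72 CPM at T0 and 6.35, 6.27 and 6.46 at T60, without overlap and not called (log2 change 0.35 ± 0.17, adjusted p = 0.0814). The chromosome 4 genes rose by 2.92 ± 0.19 (Pramel16), 2.23 ± 0.18 (Pramel18), 2.32 ± 0.24 (Pramel19) and 2.39 ± 0.19 (Pramel31). The call of Pramel7 in dPOLE4 MCM2-2A was lost without replicate 1 or 2 of T0 or replicate 1 or 3 of T60 (log2 change between 0.52 and 0.84).

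**Figure D2:**
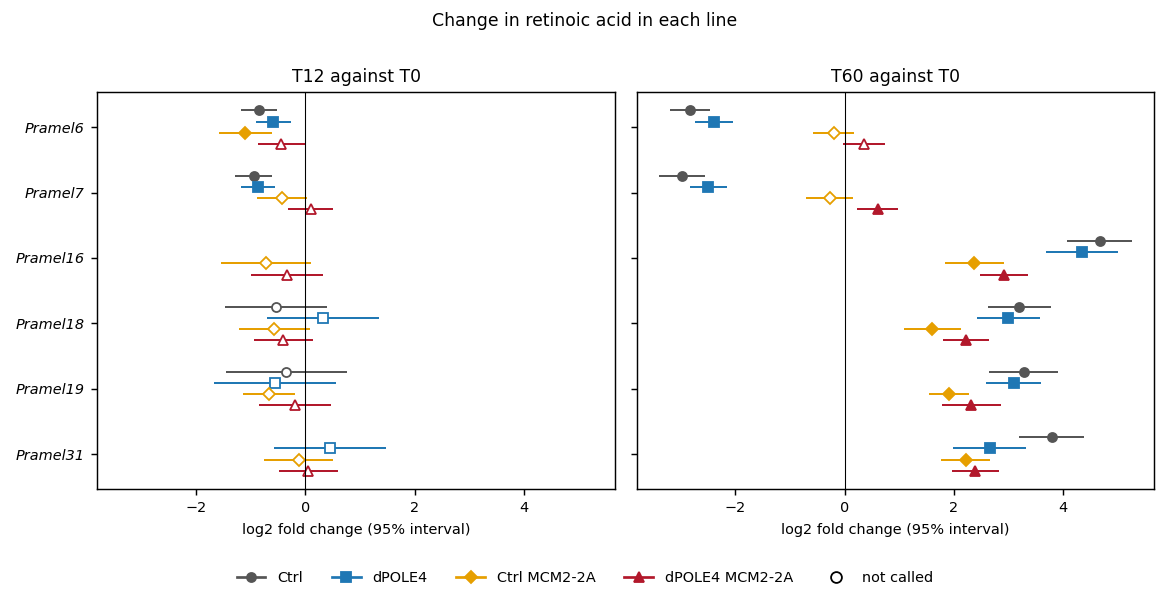
Log2 fold change of each gene at T12 and at T60 against T0 (x axis) in Ctrl, dPOLE4, Ctrl MCM2-2A and dPOLE4 MCM2-2A, as estimate and 95% interval; filled symbols were called and open ones were not, and genes with too few counts are absent. At T60 Pramel6 and Pramel7 lie at -2.40 or below in the clone with wild-type MCM2 and between -0.28 and 0.61 in the MCM2-2A clone.

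The difference between the clones in this response was tested directly, with the 12 libraries of both in 1 fit. Of the 6 members, 5 were called, against 9.1% of all features. The T60 response of Ctrl MCM2-2A minus that of Ctrl was 2.59 ± 0.24 for Pramel6 (adjusted p = 3.59e-07) and 2.67 ± 0.30 for Pramel7 (adjusted p = 4.44e-06), and it was negative for the chromosome 4 genes, at -2.33 ± 0.45 for Pramel16 (adjusted p = 0.00106), -1.62 ± 0.42 for Pramel18 (adjusted p = 0.00886), -1.61 ± 0.39 for Pramel31 (adjusted p = 0.00624) and -1.40 ± 0.38 for Pramel19 (adjusted p = 0.012, not called). Thus the fall of the chromosome 2 genes was smaller in Ctrl MCM2-2A than in Ctrl. The rise of Pramel16, Pramel18 and Pramel31 was also smaller there on the log2 scale. In Ctrl at T0, Pramel16 had 11, 3 and 7 counts and Pramel31 had 9, 7 and 9. Pramel18 had 31, 8 and 23, so these log2 rises start from few counts. The clones were not compared in this response under POLE4 depletion. DESeq2 did not call Pramel18 (adjusted p = 0.045) and the fit of all groups did not call Pramel31 (adjusted p = 0.0263). The call of Pramel18 was kept in 3 of 12 fits that each left out 1 library (without Ctrl T0 replicate 1, Ctrl MCM2-2A T0 replicate 2 or Ctrl MCM2-2A T60 replicate 1; values between -2.07 and -1.26), and that of Pramel31 in 3 of 12 (without Ctrl T60 replicate 2, Ctrl MCM2-2A T0 replicate 2 or Ctrl MCM2-2A T60 replicate 1; between -1.79 and -1.35). An effect of POLE4 depletion on the response was not called in either clone. No member was called for dPOLE4 minus Ctrl (background 0.0104%; 1 member with an unadjusted edgeR p below 0.05 and 0 called by DESeq2) or for dPOLE4 MCM2-2A minus Ctrl MCM2-2A (background 0.254%; 2 and 0).

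Before RA, the MCM2-2A clone had less Pramel6 and Pramel7 and more of the chromosome 4 genes than the clone with wild-type MCM2. At T0, the Ctrl MCM2-2A libraries had 3.36 to 5.02 CPM of Pramel6 where those of Ctrl had 12.6 to 16, a log2 difference of -1.69 ± 0.15 (adjusted p = 2.83e-06). Pramel7 differed by -0.86 ± 0.17 (adjusted p = 0.00139). Pramel16 was 2.00, 0.917 and 1.95 CPM in Ctrl MCM2-2A, above the 3 Ctrl libraries (2.13 ± 0.42, adjusted p = 0.00136). Pramel31 was 2.51, 1.30 and 2.56 CPM (2.26 ± 0.33, adjusted p = 0.000162), and Pramel18 was 4.69, 1.99 and 4.44 CPM (1.76 ± 0.38, adjusted p = 0.00262). Both were without overlap with Ctrl. Pramel19 was 5.53, 3.59 and 4.83 CPM, its lowest library below the highest of Ctrl, and was not called (1.22 ± 0.37, adjusted p = 0.0183). In all, 5 members were called, 3 higher and 2 lower, where 18.9% of features were. The call of Pramel16 was lost without Ctrl replicate 3 and that of Pramel18 without Ctrl replicate 2 or 3 (log2 difference between 1.79 and 2.64 and between 1.39 and 2.21), whereas without Ctrl replicate 1 Pramel19 was called (differences between 0.83 and 1.96).

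Along RA the differences between the clones were followed for each member. At T12, 3 members were called between Ctrl MCM2-2A and Ctrl (background 14.5%), with log2 differences of -1.98 ± 0.21 for Pramel6, 1.72 ± 0.31 for Pramel18 and 1.48 ± 0.36 for Pramel31. At T24, 5 were called (background 17.3%), which were Pramel6 (-1.19 ± 0.18), Pramel16 (1.96 ± 0.39), Pramel18 (1.46 ± 0.29), Pramel19 (0.86 ± 0.24) and Pramel31 (1.59 ± 0.22). At T60, 3 were called, all higher in Ctrl MCM2-2A (background 16.9%), and the sign of the chromosome 2 genes had turned. Pramel6 was 3.70, 4.11 and 3.68 CPM against 1.95, 2.01 and 2.21 in Ctrl (0.92 ± 0.19, adjusted p = 0.00134), and Pramel7 was 5.83, 5.85 and 4.85 CPM against 1.52, 1.1 and 2.11 (1.83 ± 0.22, adjusted p = 9.57e-06). Every Ctrl MCM2-2A library was above every Ctrl library for both genes. Pramel31 was also higher (0.69 ± 0.17, adjusted p = 0.00427). For the other chromosome 4 genes the libraries of the clones overlapped at T60, and the intervals (95%) of the log2 difference were -0.50 to 0.21 for Pramel16, -0.15 to 0.52 for Pramel18 and -0.41 to 0.12 for Pramel19. With all groups in 1 fit, Pramel19 at T24 (adjusted p = 0.0673) and Pramel31 at T60 (adjusted p = 0.0326) were not called. Leaving out 1 library ended the call of Pramel31 at T12 for each but Ctrl replicate 1 (between 1.23 and 2.15), of Pramel19 at T24 for Ctrl replicates 2 and 3 and Ctrl MCM2-2A replicates 1 and 3 (between 0.60 and 1.29) and of Pramel31 at T60 for Ctrl replicates 2 and 3 and Ctrl MCM2-2A replicate 1 (between 0.55 and 0.92).

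The same comparison was made between the clones when both were depleted of POLE4. At T0 all 6 members were called between dPOLE4 MCM2-2A and dPOLE4 (background 18.6%), with log2 differences of -1.77 ± 0.17 for Pramel6, -1.38 ± 0.16 for Pramel7, 2.23 ± 0.45 for Pramel16, 2.13 ± 0.36 for Pramel18, 1.5 ± 0.39 for Pramel19 and 1.83 ± 0.38 for Pramel31. All members except Pramel7 were called at T12 (5 members, background 18.4%) and at T24 (5 members, background 16.1%), with Pramel6 lower by -1.62 ± 0.15 and -1.03 ± 0.22 and the chromosome 4 genes higher by 1.40 to 1.99 at T12 and by 1.43 to 2.10 at T24. At T60 all 6 were called, and all were higher in dPOLE4 MCM2-2A (background 20.4%). Pramel7 was 9.78, 8.24 and 9.48 CPM against 2.59, 2.80 and 2.93 in dPOLE4 (1.72 ± 0.15, adjusted p = 1.19e-06). Pramel18 was 23.4, 22.1 and 21.8 CPM against 8.76, 8.26 and 8.90 (1.37 ± 0.10, adjusted p = 2.63e-07), and Pramel31 was 17.0, 14.5 and 16.1 CPM against 5.86, 5.50 and 4.51 (1.59 ± 0.13, adjusted p = 7.79e-07). The libraries of the clones were apart for every member. Pramel6, Pramel16 and Pramel19 were higher by 0.96 ± 0.15, 0.83 ± 0.12 and 0.75 ± 0.10. DESeq2 did not call Pramel19 at T0 (adjusted p = 0.0743) or T12 (adjusted p = 0.0556), and the fit of all groups did not call Pramel16 (adjusted p = 0.0122) or Pramel19 (adjusted p = 0.0355) at T60. Leaving out 1 library ended the T0 calls of Pramel16 (dPOLE4 replicate 3; 1.84 to 3.06), Pramel19 (dPOLE4 replicate 2 or 3, dPOLE4 MCM2-2A replicate 1 or 3; 1.18 to 2.01) and Pramel31 (dPOLE4 replicate 2 or 3, dPOLE4 MCM2-2A replicate 3; 1.5 to 2.47) and the T24 calls of Pramel6 (dPOLE4 replicate 1, dPOLE4 MCM2-2A replicate 1 or 2; -1.22 to -0.83) and Pramel19 (dPOLE4 MCM2-2A replicate 3; 1.13 to 1.98).

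In the 96 h experiment, in serum with LIF, the differences of all 6 members between the clones had the same sign as at T0. In Ctrl, Pramel6 was 9.26, 8.67 and 9.19 CPM, and in Ctrl MCM2-2A 4.44, 3.79 and 3.19 (-1.27 ± 0.17, adjusted p = 9.61e-05). Pramel18, with 2.25, 1.22 and 2.24 CPM in Ctrl and 3.47, 4.03 and 3.97 in Ctrl MCM2-2A, was the other of 2 members called (1.02 ± 0.25, adjusted p = 0.00671, background 15.7%), but not by DESeq2 (adjusted p = 0.0112). Pramel7 (-0.58 ± 0.19, adjusted p = 0.0288), Pramel19 (0.60 ± 0.21, adjusted p = 0.043) and Pramel31 (0.85 ± 0.28, adjusted p = 0.0315) were not called although the libraries of the clones did not overlap, and Pramel16 overlapped (1.08 ± 0.48, adjusted p = 0.0985). Between dPOLE4 MCM2-2A and dPOLE4 all 6 members were called (background 16.4%), with log2 differences of -1.46 ± 0.21 for Pramel6, -0.74 ± 0.18 for Pramel7, 1.61 ± 0.25 for Pramel16, 1.69 ± 0.20 for Pramel18, 1.29 ± 0.17 for Pramel19 and 1.15 ± 0.25 for Pramel31. Calls that ended without 1 library were those of Pramel18 in the first of these comparisons (Ctrl replicate 2 or 3, Ctrl MCM2-2A replicate 2 or 3; 0.79 to 1.15) and of Pramel7 (dPOLE4 replicate 1 or 2, dPOLE4 MCM2-2A replicate 2 or 3; -0.87 to -0.61) and Pramel31 (dPOLE4 replicate 2 or 3, dPOLE4 MCM2-2A replicate 3; 0.93 to 1.43) in the second.

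**Figure D3:**
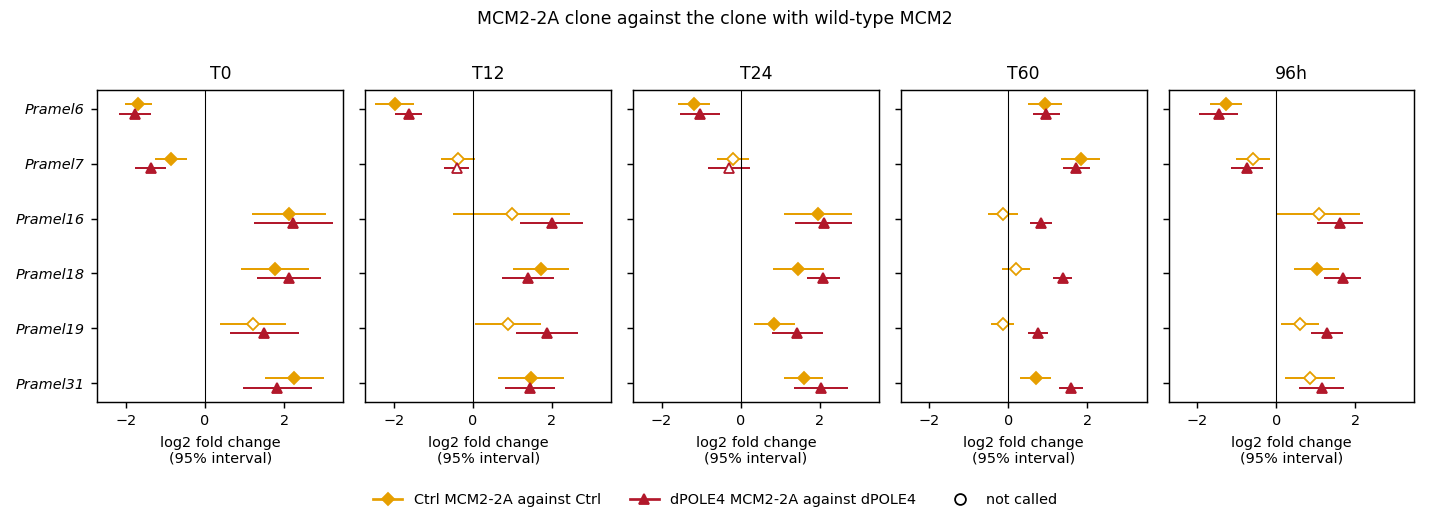
Log2 difference of each gene between the MCM2-2A clone and the clone with wild-type MCM2 (x axis, 1 scale for all panels) in Ctrl and in dPOLE4 cells at T0, T12, T24, T60 and 96h, as estimate and 95% interval, with filled symbols for calls. Pramel6 lies left of 0 at T0 and right of 0 at T60, and for the chromosome 4 genes the differences at T60 are smaller than those at T0, from -0.15 to 0.69 for Ctrl cells and from 0.75 to 1.59 for dPOLE4 cells.

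The other tested genes within 5 Mb of the members were examined beside them. Between Ctrl MCM2-2A and Ctrl at T0, the median log2 difference was 0.00 over 68 neighbours of Pramel6, 0.01 over 48 neighbours of Pramel18 and 0.12 over 146 neighbours of Pramel16. At T60 these medians were -0.04, 0.01 and 0.16. Between dPOLE4 MCM2-2A and dPOLE4 at T60 they were 0.03, 0.02 and 0.30. The called neighbours were then 8 of 74 for Pramel6, 11 of 48 for Pramel18 and 45 of 142 for Pramel16 (background 20.4%). Over all tested genes of chromosome 4 the median was 0.04 at T0 and 0.03 at T60 in the first of these comparisons and 0.08 in the second at T60. The part of the neighbourhood in the members' differences was not tested.

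Within the clone with wild-type MCM2, POLE4 depletion gave no call for any member at any time in the main edgeR fits. These held no replicate block. The background was 0% at T0, T12, T24 and 96 h and 0.193% at T60. Members with an unadjusted edgeR p below 0.05 numbered 1 at T0, 2 at T12, 1 at T24, 3 at T60 and 6 at 96 h, and DESeq2 called 0 at T0 to T60 and 1 at 96 h. DESeq2 gave no adjusted p to any member at T0, so it could call none there. It gave none either to the chromosome 4 genes at T12, Pramel16 at T24, Pramel7 at T60, or Pramel16 and Pramel31 at 96 h. At T60, Pramel6 was 3.27, 3.02 and 3.51 CPM in dPOLE4 against 1.95, 2.01 and 2.21 in Ctrl, and Pramel7 was 2.59, 2.80 and 2.93 against 1.52, 1.1 and 2.11. The groups did not overlap for either gene, with log2 differences of 0.69 ± 0.21 (adjusted p = 0.118) and 0.85 ± 0.25 (adjusted p = 0.113). Pramel18 (-0.27 ± 0.12, adjusted p = 0.303) and Pramel19 (-0.19 ± 0.10, adjusted p = 0.407) had all dPOLE4 libraries below all Ctrl libraries at T60. At 96 h, all 6 members had all dPOLE4 libraries above all Ctrl libraries. Pramel6 was 17.0, 16.3 and 11.8 CPM in dPOLE4 against 9.26, 8.67 and 9.19 in Ctrl (0.74 ± 0.15, adjusted p = 0.11). Pramel31 was 4.39, 2.26 and 2.95 CPM against 1.5, 1.06 and 1.16 (1.35 ± 0.28, adjusted p = 0.116). Pramel7 (0.70 ± 0.16, adjusted p = 0.138), Pramel16 (1.18 ± 0.37, adjusted p = 0.241), Pramel18 (0.81 ± 0.29, adjusted p = 0.277) and Pramel19 (0.86 ± 0.22, adjusted p = 0.177) had differences of the same sign. In this comparison libraries with the same replicate number deviated together, and with the replicate number as a block 4 members were called (background 0.71%), namely Pramel6 (adjusted p = 0.000223), Pramel7 (adjusted p = 0.00123), Pramel19 (adjusted p = 0.00335) and Pramel31 (adjusted p = 0.000491). DESeq2 without the block called Pramel6 (adjusted p = 0.00415, background 0.196%).

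In the MCM2-2A clone, 5 of the 6 members were called higher after POLE4 depletion at T60 and 2 at 96 h by the main edgeR fits. At T0 and T12 no member was called (backgrounds 0.0715% and 0.404%; 0 and 4 members with an unadjusted edgeR p below 0.05, and 0 and 0 called by DESeq2). At T24 none was called either (background 1.02%; 4 and 2). DESeq2 gave no adjusted p for Pramel16 at T0 or T12. The 2 that DESeq2 called at T24 (background 1.44%) were Pramel18, with 7.15, 7.20 and 9.22 CPM in dPOLE4 MCM2-2A against 4.75, 3.17 and 5.44 in Ctrl MCM2-2A (0.89 ± 0.19, edgeR adjusted p = 0.0121), and Pramel19, with 9.85, 9.69 and 13.7 CPM against 6.77, 5.47 and 8.56 (0.74 ± 0.18, edgeR adjusted p = 0.0237). For both, the groups did not overlap.

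At T60 the background of calls in this comparison was 2.25%. Pramel6 was 6.35, 6.27 and 6.46 CPM in dPOLE4 MCM2-2A against 3.70, 4.11 and 3.68 in Ctrl MCM2-2A (0.73 ± 0.13, adjusted p = 0.00653), and Pramel7 was 9.78, 8.24 and 9.48 against 5.83, 5.85 and 4.85 (0.73 ± 0.13, adjusted p = 0.00608). Pramel18, the member with the largest change, was 23.4, 22.1 and 21.8 CPM against 15.4, 10.1 and 10.4 (0.91 ± 0.14, adjusted p = 0.00298). Replicate 1 of Ctrl MCM2-2A was the highest of its group for all 4 chromosome 4 genes, and still below every dPOLE4 MCM2-2A library. Pramel16 was 15.6, 14.4 and 16.4 CPM against 11.7, 7.53 and 7.92 (0.78 ± 0.15, adjusted p = 0.00986), and Pramel19 was 31.8, 29.5 and 25.5 against 21.5, 16.4 and 15.5 (0.70 ± 0.13, adjusted p = 0.00674). Pramel31 was 17.0, 14.5 and 16.1 CPM against 12.6, 9.25 and 9.60 and was not called by edgeR (0.60 ± 0.13, adjusted p = 0.0143). DESeq2 called it (adjusted p = 0.00193), and so all 6 members, among 502 features. The number of members called changed with the library left out. It was 0 without replicate 2 or replicate 3 of Ctrl MCM2-2A or without replicate 2 of dPOLE4 MCM2-2A. It was 1 (Pramel18) without replicate 1 of dPOLE4 MCM2-2A, 4 without replicate 1 of Ctrl MCM2-2A and 6 without replicate 3 of dPOLE4 MCM2-2A. The log2 differences of the 6 members stayed between 0.52 and 1.14. With all groups in 1 fit, Pramel16 (adjusted p = 0.0492) and Pramel19 (adjusted p = 0.11) were not called.

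At 96 h in the MCM2-2A clone, where 0.304% of features were called, the called members were the near-identical Pramel18 and Pramel19. Pramel18 was 9.64, 10.9 and 11.7 CPM in dPOLE4 MCM2-2A and 3.47, 4.03 and 3.97 in Ctrl MCM2-2A (1.47 ± 0.15, adjusted p = 0.00251). Pramel19 was 15.2, 13.3 and 14.0 CPM and 5.54, 4.78 and 4.39 (1.56 ± 0.15, adjusted p = 0.00232). Pramel31, at 8.31, 5.55 and 7.10 CPM against 2.77, 2.48 and 1.67 (1.66 ± 0.24, adjusted p = 0.0111), and Pramel16, at 4.22, 3.33 and 5.49 against 1.39, 0.559 and 1.93 (1.72 ± 0.37, adjusted p = 0.0634), had differences at least as large but were not called. All 4 were apart between the groups. DESeq2 called all 4 (among 111 features), with adjusted p = 0.00402 for Pramel16 and adjusted p = 1.81e-05 for Pramel31. With all groups in 1 fit, 3 members were called (among 59 features). Pramel31 was called there (adjusted p = 0.0054) and Pramel16 was not (adjusted p = 0.0308). Same-numbered libraries deviated together here too, and with the replicate block Pramel16 (adjusted p = 8.11e-06) and Pramel31 (adjusted p = 1.12e-06) were called as well (background 1.78%). The chromosome 2 genes overlapped, with 3.84, 6.95 and 5.49 CPM against 4.44, 3.79 and 3.19 for Pramel6 (0.56 ± 0.24, adjusted p = 0.397) and 6.05, 6.37 and 4.65 against 4.85, 3.85 and 3.5 for Pramel7 (0.54 ± 0.20, adjusted p = 0.305). No member was called without replicate 3 of Ctrl MCM2-2A or of dPOLE4 MCM2-2A, and Pramel19 alone without replicate 2 of dPOLE4 MCM2-2A, with log2 differences of Pramel18 and Pramel19 between 1.41 and 1.64 over all libraries left out.

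**Figure D4:**
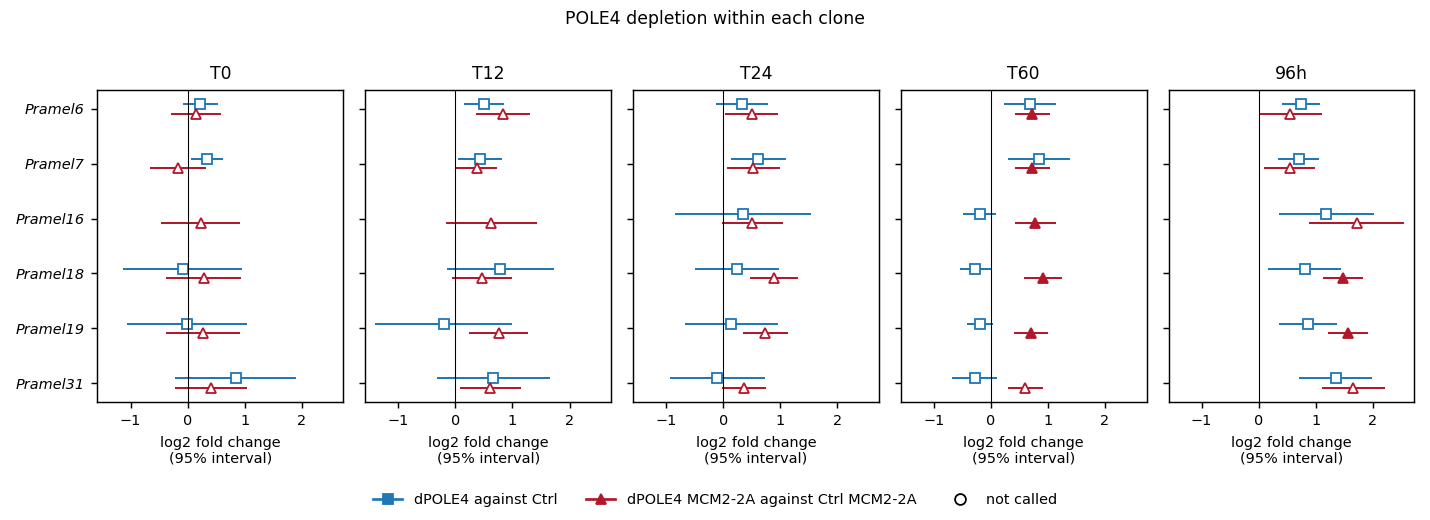
Log2 difference of each gene between POLE4-depleted and control cells (x axis, 1 scale for all panels) in the clone with wild-type MCM2 and in the MCM2-2A clone at T0, T12, T24, T60 and 96h, as estimate and 95% interval, with filled symbols for calls and genes with too few counts absent. At T60 the chromosome 4 genes lie between -0.29 and -0.19 in the first clone and between 0.60 and 0.91 in the second, while Pramel6 and Pramel7 lie right of 0 in both.

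Whether POLE4 depletion acted differently in the clones was tested with the 12 libraries of each time in 1 fit. At T60, 1 member was called (background 0.1%), which was Pramel18. Its effect in the MCM2-2A clone exceeded that in the other clone by 1.2 ± 0.20 on the log2 scale (adjusted p = 0.00888). The differences were 0.99 ± 0.21 for Pramel16 (adjusted p = 0.0442), 0.90 ± 0.17 for Pramel19 (adjusted p = 0.0257) and 0.90 ± 0.23 for Pramel31 (adjusted p = 0.0942), and DESeq2 called Pramel16, Pramel18 and Pramel19 (3 members, background 0.534%). For the chromosome 2 genes the intervals (95%) were -0.42 to 0.52 for Pramel6 and -0.65 to 0.44 for Pramel7. The call of Pramel18 was lost with all groups in 1 fit (adjusted p = 0.136) and was kept in 2 of 12 fits that each left out 1 library (without replicate 1 of Ctrl MCM2-2A or replicate 3 of dPOLE4 MCM2-2A; differences between 1.07 and 1.41). No member was called at T0 (background 0.00526%), T12 (0.0159%), T24 (0.0351%) or 96 h (0%), where edgeR gave 0, 0, 0 and 1 members an unadjusted p below 0.05 and DESeq2 called 0 at each time.

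The order of the levels over the groups of the first experiment summarises these patterns, as a description. For Pramel16, Pramel18, Pramel19 and Pramel31, dPOLE4 MCM2-2A at T60 ranked highest, and its 3 libraries were above those of every other group. Group means of these genes spanned 40.4-fold, 30.3-fold, 20.3-fold and 34.9-fold from lowest to highest. The spans of Pramel6 and Pramel7 were smaller, at 8.34-fold and 9.76-fold. Both were highest in dPOLE4 at T0 (16.8 and 15.4 CPM), which overlapped Ctrl at T0 (14.3 and 12.1). Pramel6 was lowest in Ctrl MCM2-2A at T12 (2.01 CPM), overlapping Ctrl at T60 (2.05), and Pramel7 was lowest in Ctrl at T60 (1.58 CPM), apart from the next group, dPOLE4 at T60 (2.77).

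The genes with the most similar pattern were ranked by Pearson's r of mean log2 CPM over the 16 groups, which share clones and times, as a description. For Pramel7, first and second among 21330 features were its family members Pramel30 (r = 0.947) and Pramel14 (r = 0.937), and Pramel6 came 35th (r = 0.829). For Pramel6 the nearest was the retrovirus ETnERV3-int (r = 0.964). For Pramel16 they were Zscan4-ps3 (r = 0.995), Zscan4a (r = 0.990) and Zscan4b (r = 0.988), and for Pramel18 Usp17la (r = 0.988), a 2-cell-stage deubiquitinase gene, and Pramel16 (r = 0.986). Zscan4-ps3 was second for Pramel19 (r = 0.989), after Gm38642 (r = 0.990), and for Pramel31 the first 5 were Kdm4dl (r = 0.990), Il1r1 (r = 0.988), Ebpl (r = 0.988), Micu2 (r = 0.983) and Chkb (r = 0.983). The chromosome 4 members correlated among themselves with r between 0.944 and 0.986, and with Pramel6 and Pramel7 between -0.647 and -0.445. Pramel18 and Pramel19 share stretches of the length of a read, as do Pramel16 and Pramel31. The part of such reads in these values of r was not tested.

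Of the 22 other family genes with at least 30 counts, 10 were tested between T60 and T0 in Ctrl, where 50.6% of all features were called. Of these, 5 rose (Pramel11, Pramel17, Pramel24, Pramel36 and Pramel49) and 3 fell (Pramel12, Pramel14 and Pramel30), with a median of 1.64 where all features had -0.01. The 3 that fell lie on chromosome 4, with Pramel14 and Pramel30 between Pramel16 and Pramel31, and Pramel36 and Pramel49 lie on chromosome 5. Pramel30 fell by 4.68 ± 0.34 and Pramel14 by 3.93 ± 0.32 on the log2 scale, further than Pramel6 and Pramel7. Between Ctrl MCM2-2A and Ctrl, Pramel14 and Pramel30 were the 2 of 6 tested that were called at T0, both lower (-1.49 ± 0.21 and -1.46 ± 0.17; background 18.9%), and the 2 of 11 called at T60, both higher (2.02 ± 0.46 and 2.95 ± 0.45; background 16.9%). The T60 call of Pramel14 was lost with DESeq2 and without Ctrl replicate 2 or 3 (between 1.80 and 2.48). The median of the tested genes was 0.38 at T0 and -0.22 at T60, against -0.02 and 0.01 over all features. After POLE4 depletion in the MCM2-2A clone at T60, Pramel13 (0.60 ± 0.09) and Pramel4 (1.70 ± 0.32) rose, 2 of 13 tested (background 2.25%; median 0.61, all features 0.00). The call of Pramel13 was kept in 2 of 6 fits without 1 library (between 0.53 and 0.66; lost without replicate 2 or 3 of either group) and that of Pramel4 in 0 of 6 (between 1.48 and 1.81), and the fit of all groups did not call Pramel4. None of the tested family genes was called after POLE4 depletion in the other clone at T0 (6 tested), T12 (5), T24 (7), T60 (10) or 96 h (6). No feature of any kind was called there at T0, T12, T24 or 96 h, and 0.193% were at T60.

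Of 11 genes for UHRF1, DNA methyltransferases and demethylases and the CUL2 ligase, to which Pramel7 protein is linked, 3 differed between Ctrl MCM2-2A and Ctrl at T0, where 18.9% of all features did. Uhrf1 (0.70 ± 0.05) and Dnmt3a (1.48 ± 0.06) were higher and the demethylase gene Tet2 was lower (-0.62 ± 0.09), with a median of 0.12 against -0.02 over all features. The call of Tet2 was lost without Ctrl replicate 2 or Ctrl MCM2-2A replicate 1 (between -0.71 and -0.54). These are RNA values and do not show the amount of UHRF1 protein. Between T60 and T0 in Ctrl, 6 of the 11 fell and 0 rose (median -0.63; 50.6% of all features were called in either direction, with a median of -0.01), among them Dnmt3b (-2.28 ± 0.07) and Tet2 (-2.55 ± 0.08). In the LIF and STAT3 list, 6 of 11 fell and 1 rose (median -0.65). Socs3, the feedback inhibitor of STAT3, fell by 0.76 ± 0.10. Of 12 naive pluripotency genes 11 fell and 0 rose (median -4.22), with Nanog at -4.56 ± 0.08. Of 8 RA response genes 6 rose and 1 fell (median 5.16). At T60, 8 of 12 naive genes were higher in Ctrl MCM2-2A than in Ctrl and 0 lower (background 16.9%, median 1.18, all features 0.01). Nanog was higher by 2.02 ± 0.12, and Pramel6 and Pramel7 were higher too. At T0, where Pramel6 and Pramel7 were lower in Ctrl MCM2-2A, Tbx3 was called higher and Dppa3 lower among the 12 (median -0.002, background 18.9%). At 96 h, 0 were called higher and 1 lower, which was Dppa3 (median -0.22, background 15.7%).

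The chromosome 4 members moved with the genes of 2-cell-like cells. The list of 10 Zscan4, Zfp352, Tcstv and Usp17la genes and 2 MERVL features had 11 tested features, and all 11 rose between T60 and T0 in Ctrl (background 50.6%; median 3.96), with Zscan4c at 3.96 ± 0.20. The summed level of Pramel16, Pramel18, Pramel19 and Pramel31 was between 1.77 and 6.57 CPM in the Ctrl libraries at T0 and between 42.6 and 52.5 at T60, and that of the 10 2-cell-like genes between 12.6 and 42.6 and between 340.1 and 454.2. Within groups of 3 libraries, the lowest library for the Pramel sum was the lowest for the 2-cell-like sum in 17 of 20 groups, and the highest was the highest in 17 of 20. Replicate 2 was the lowest for both sums in every line at T0, T12 and T24, so the groups do not count as separate cases. Between groups the ratio was not fixed. At T60, dPOLE4 MCM2-2A had a mean Pramel sum of 82.6 CPM with a 2-cell-like sum of 370.4, and Ctrl had 46.5 with 392.4. In Ctrl MCM2-2A they were 49.3 and 252.1 CPM. Between Ctrl MCM2-2A and Ctrl, 4 of 11 tested 2-cell-like features were higher at T0 (median 1.26, background 18.9%) and 4 lower at T60 (median -0.55, background 16.9%). After POLE4 depletion in the MCM2-2A clone, 2 of 11 rose at T60 (background 2.25%), Usp17la (0.79 ± 0.14) and Zscan4c (0.61 ± 0.12), and 4 of 11 at 96 h (background 0.304%), among them Usp17la (1.55 ± 0.18) and MERVL-int (1.00 ± 0.11). Usp17la was also the feature of this list whose POLE4 effect differed between the clones at T60 (1.24 ± 0.19). Each of these calls was lost in some of the fits that left out 1 library. That of Zscan4c at T60 was kept in 1 of 6 such fits (log2 change between 0.49 and 0.75). Those of Usp17la were kept in 2 of 6 at T60 (0.69 to 0.99) and in 2 of 6 at 96 h (1.41 to 1.68). Its difference between the clones was kept in 2 of 12 (1.13 to 1.43), and the call of MERVL-int in 3 of 6 (0.92 to 1.12). The defining gene Tcstv1 was at 0 in Ctrl and dPOLE4 at T0. The part of 2-cell-like cells in the changes of the Pramel genes was not tested.

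**Figure D5:**
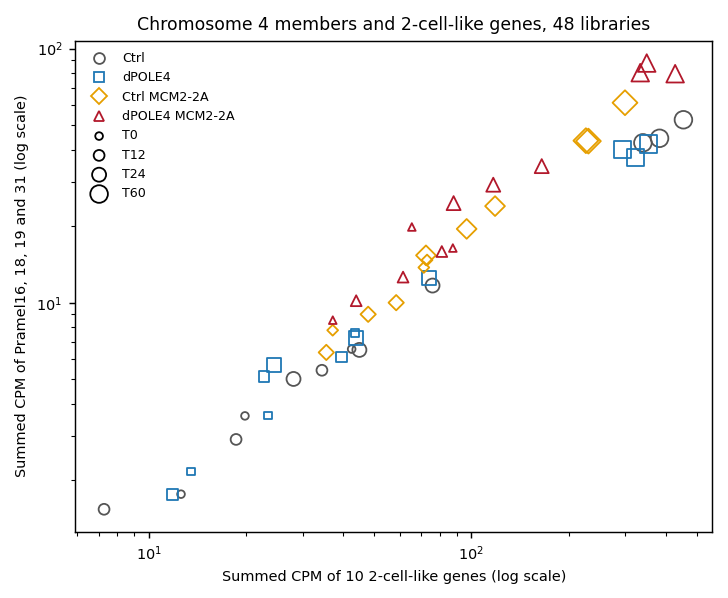
Summed CPM of Pramel16, Pramel18, Pramel19 and Pramel31 (y axis, log scale) against the summed CPM of 10 2-cell-like genes (x axis, log scale) in the 48 libraries of the first experiment, with colour and shape for the line and symbol size for the time. Both sums are lowest at T0 and T12 in the clone with wild-type MCM2 and highest at T60, where the dPOLE4 MCM2-2A libraries have the highest Pramel sums (79.7 to 87.8 CPM) at 2-cell-like sums (333.7 to 428.1 CPM) that overlap those of Ctrl (340.1 to 454.2).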

How the data were processed

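RNA depleted of ribosomal RNA was sequenced as strand-specific paired reads in 60 libraries of 20 groups. The authors trimmed reads with cutadapt 4.2, aligned them to mm10 with STAR 2.7.11a and counted genes (GENCODE M25) and repeat subfamilies with TEcount (TEtranscripts 2.2.3), and they deposited raw counts in 2 tables, which were used as deposited. Gene symbols and positions came from GENCODE M21 on the same genome build, with Pramel16, Pramel19 and Pramel31 matched through older symbols and Pramel18 by position, and promoters from RefSeq.

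From these counts, edgeR 4.0.16 (R 4.3.3, limma 3.58.1) fitted the libraries of the groups compared. Features were kept by filterByExpr (minimum count 10, total 15), scaled by TMM over genes and repeats, and tested by the quasi-likelihood F test with Benjamini-Hochberg adjustment over all features tested. The 24 h and RA libraries and the 96 h libraries were treated as separate experiments. A prior count of 2 was used for log2 CPM. Alternatives were DESeq2 1.42.0, its size factors, no filter, a replicate block, all groups in 1 fit, no fold limit, and each library left out in turn. The fits were tested on simulated data. Depth was between 7126100 and 46609151 counts per library and limits the precision of genes at a few counts.

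The members, gene lists and rules were chosen with earlier results of these data known. The 6 members were named in every comparison, and other genes only from lists of family members, Pramel7 partners, LIF and STAT3, naive, RA and 2-cell-like genes, with up to 4 examples each. The genes nearest in pattern were the 5 with the highest r. Same-numbered libraries were said to deviate together where the deviations of all 3 pairs from their group means correlated above 0.1. This held for POLE4 depletion in both clones at T0 and 96 h and for both clone comparisons at 96 h. The main fits held no replicate block in these comparisons either. With the block, 2 members were called for Ctrl MCM2-2A against Ctrl at 96 h (3078 features). For dPOLE4 MCM2-2A against dPOLE4 at 96 h they were 6 (3421 features). For POLE4 depletion at T0, 0 members were called with it in either clone (8 and 148 features). No pair of libraries of a group agreed within sampling noise (lowest chi-square per degree of freedom 2.70 over 60 pairs).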

Additional observations from a re-analysis of the deposited data

Results flagged for a closer look

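The difference between the clones in the T60 response to RA passed its own test for 5 members. It was 2.59 for Pramel6 and 2.67 for Pramel7 (log2, Ctrl MCM2-2A minus Ctrl), and -2.33 for Pramel16, -1.62 for Pramel18 and -1.61 for Pramel31. The summed level of 10 2-cell-like genes moved with the chromosome 4 members, from a mean of 25.0 CPM at T0 to 392.4 at T60 in Ctrl and from 60.4 to 252.1 in Ctrl MCM2-2A, and its part in the result was not tested.

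The effect of POLE4 depletion at T60 differed between the clones for Pramel18, by 1.2 on the log2 scale. The 2-cell-like sum was 392.4 CPM in Ctrl, 323.8 in dPOLE4, 252.1 in Ctrl MCM2-2A and 370.4 in dPOLE4 MCM2-2A, and its part was not tested either.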

How the results depend on the processing

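Of 1591 values of single genes recomputed under the alternatives, 1386 kept their side of the threshold, 160 lost a call, 45 gained one and 0 changed sign. DESeq2's size factors changed none of 139, DESeq2 ended 5 calls of 135 and added 8, no filter on low counts added 15 of 139, and the fit of all groups ended 13 and added 1. Leaving out 1 library ended 142 of 900.

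The counts that moved by over 1.5 times were mainly those of POLE4 depletion. For dPOLE4 against Ctrl, summed over 5 times, 0 member calls became 1 with DESeq2 and 4 without the filter, and 33 feature calls became 79 and 296, 21 with all groups and 71 without the fold limit. For dPOLE4 MCM2-2A against Ctrl MCM2-2A, 7 member calls became 12 with DESeq2 and 14 without the filter, and 743 feature calls became 1820 without the filter, 1228 with all groups and 1288 without the fold limit. For the difference of the POLE4 effect, 1 member call became 3 with DESeq2, 4 without the filter and 0 with all groups, and 30 feature calls became 143, 381 and 54. Without the fold limit, feature calls rose from 15040 to 26163 (Ctrl MCM2-2A against Ctrl) and from 16483 to 26573 (dPOLE4 MCM2-2A against dPOLE4). The causes were not tested.

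With 1 library left out, member calls were 0 to 0 for dPOLE4 against Ctrl (features 6 to 41), 2 to 8 for dPOLE4 MCM2-2A against Ctrl MCM2-2A (411 to 900), 16 to 19 for Ctrl MCM2-2A against Ctrl (14428 to 15049), 25 to 28 for dPOLE4 MCM2-2A against dPOLE4 (15819 to 16797), 0 to 3 for the difference of the POLE4 effect (12 to 49), 25 to 26 for the RA response (41385 to 42646) and 3 to 6 for its difference between lines (1384 to 1862).

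With the replicate number as a block, member calls became 4 for dPOLE4 against Ctrl (features 202), 12 for dPOLE4 MCM2-2A against Ctrl MCM2-2A (1363) and 2 for the difference of the POLE4 effect (93). In the comparisons where same-numbered libraries did not all deviate together they share only a number. Of the 139 gene values, 12 gained a call with the block and 0 lost one. Depth limits Pramel16 and Pramel31, which had too few counts to be tested in some comparisons of T0 and T12.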
